A study of Mus musculus with 9 samples.

Results

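Livers of mice labelled treated were compared with livers of mice labelled model, 3 libraries against 3, gene by gene across the expressed genome. The study bears on liver damage caused by gefitinib, a small-molecule inhibitor of the EGF receptor tyrosine kinase used against lung cancer. It holds 9 libraries of mouse liver polyadenylated RNA, and the 6 model and treated libraries are the subject here, with the 3 control libraries shown for level. The labels call the groups control, model and treated. They give no dose, time, strain, sex or age, name no agent for the treated group, and do not state whether each library was a separate animal, so the p-values measure the spread between libraries, which may be technical. Nor do they say whether the treated mice also got gefitinib. The titles speak of liver cells and the source field of liver, so whether whole tissue or isolated cells were used is not settled by them. Of 55401 genes in the deposited matrix, 27945 had a count in any library, 18113 passed the filter on low counts and were tested, and 18032 of these had a count in both groups.

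The liver parenchyma consists of hepatocytes, which make most plasma proteins, burn and export fat, make urea and bile acids and clear drugs. Between the plates of hepatocytes lie sinusoidal endothelial cells, resident macrophages called Kupffer cells, and stellate cells, which lay down matrix when activated. The EGF receptor is abundant on hepatocytes and signals through the kinase ERK, which induces immediate early genes and the phosphatases that switch it off again. Injured livers are known for recruiting macrophages, depositing matrix, and inducing keratins, annexins, antioxidant enzymes and targets of p53 while the hepatocyte programme declines.

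Depth was even, at 56440871 to 60665156 estimated counts per library. Every library was rich in hepatocyte transcripts, with albumin (Alb) at 60341, 58541 and 58726 CPM (counts scaled by library size) in model replicates 1 to 3 and 46592, 47589 and 55431 in treated replicates 1 to 3. CPM values here are scaled by edgeR's trimmed mean of M values (TMM), which sets the median gene to about no change. A trace of skeletal muscle RNA divided the libraries in another way than the labels. The summed level of 15 skeletal muscle markers was 235 CPM in model replicate 1 but 1.10 and 0.997 CPM in model replicates 2 and 3. It was 202, 161 and 182 CPM in the treated libraries and 0.769 to 1.55 CPM in the control libraries. None of the 15 passed the test with all libraries, 15 did without model replicate 1, and 0 did with model replicate 1 as the lone model library. The part of this trace in other differences was not tested. Counts are therefore also given without model replicate 1 and with model replicate 1 alone, whose spread is then assumed to be like that of the other groups. Erythroid markers, 8 genes of red cells, summed to 1984, 1254 and 863 CPM in the model livers, 580, 586 and 351 CPM in the treated livers and 655 to 950.4 CPM in the control livers. Hba-a1, a haemoglobin chain, was the single one of them called lower.

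**Figure D1:**
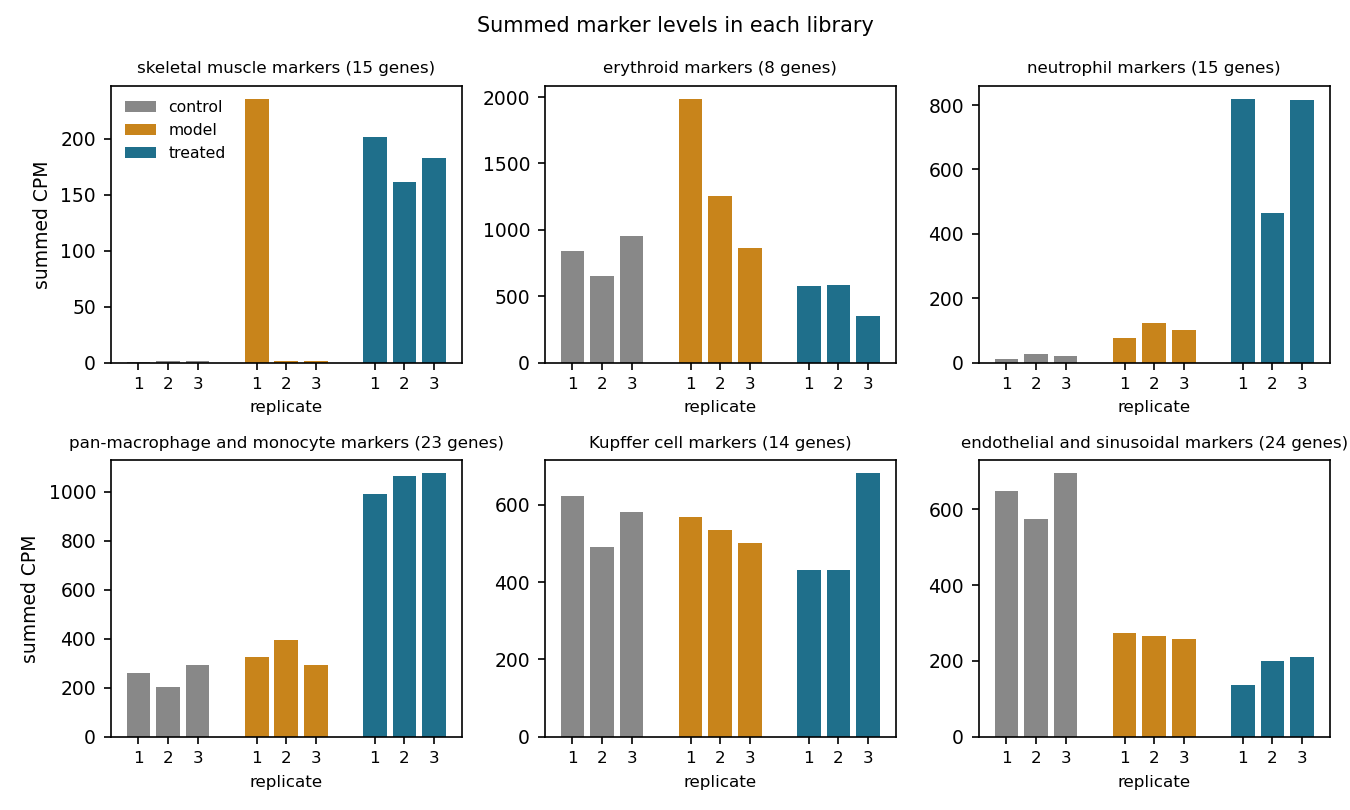
Summed CPM of 6 marker lists in each of the 9 libraries, grouped as control, model and treated, with the number of genes tested in each title. Skeletal muscle markers stood at 235 CPM in model replicate 1 and at 161 to 202 CPM in the treated libraries, against 0.769 to 1.55 CPM in the other 5. Most of the neutrophil sum was the single gene Lcn2 in each model and treated library, and 14 of the 15 neutrophil markers were not called.

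In the comparison of treated with model livers, 943 genes were called higher and 805 lower by edgeR's quasi-likelihood test at a Benjamini-Hochberg adjusted p under 0.05. That is 9.65% of the genes tested, 5.21% higher and 4.44% lower. The rises were larger than the falls. The median fold of the genes called higher was 2.21 and that of the genes called lower 1.64, with 531 rising and 219 falling at least 2-fold, and 177 rising and 42 falling at least 4-fold. The genes that fell were the more abundant ones. Together the genes called lower made up 15.6 to 16.9% of all CPM in the model libraries and 10.9 to 11.99% in the treated libraries, whereas the genes called higher went from 2.14 to 2.37% up to 4.71 to 5.62%. All 1748 called genes had libraries that did not overlap between the groups, as had 31.2% of the genes tested. Without model replicate 1 the calls were 530 higher and 364 lower, and with model replicate 1 as the lone model library 267 higher and 183 lower, of which 223 and 169 were among the calls made with all libraries.

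The balance of rises and falls depends on how libraries are scaled. TMM factors were 1.05 to 1.14 in the treated and 0.949 to 0.998 in the model libraries. Scaled to library totals without TMM, 1638 genes were called higher and 408 lower, so that 80.1% of calls were rises instead of 53.9%, and the median gene shifted by 0.17 on the log2 scale. Limma on the deposited FPKM gave 1664 higher and 400 lower, 80.6% rises, with a shift of 0.15. Changes are given relative to the median gene, and list counts of 3 or more that move by over 1.5 times with library totals are given with both values. Smaller counts moved too. With library totals, those called lower went from 2 to 1 among collagen chains, lysosome genes and BCL2 family genes, and from 1 to 0 among lipid-associated macrophage markers, mitotic genes and ATF4 genes, while cholangiocyte markers went from 1 higher and 1 lower to 2 and 0.

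**Figure D2:**
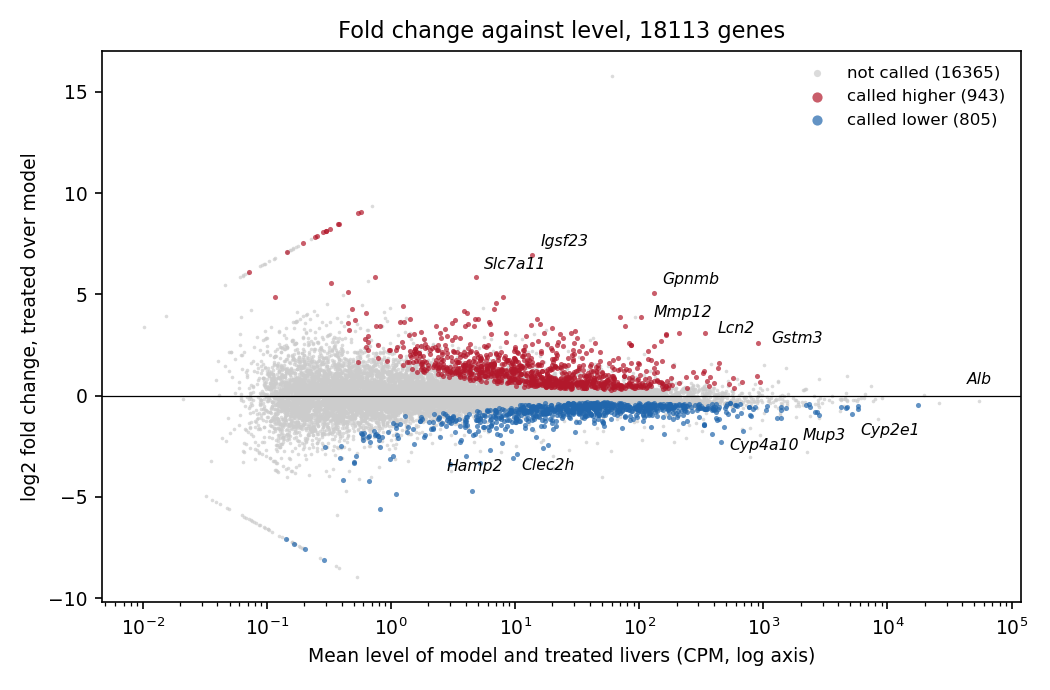
Log2 fold change, treated over model, against the mean CPM of the 6 libraries on a log axis for 18113 genes; red points are the 943 genes called higher and blue points the 805 called lower. The share of genes called lower was larger at high levels, 15.9% from 100 to 1000 CPM and 17.2% from 1000 CPM. The straight rows of points at the left edge are genes with all libraries of 1 group at 0, whose fitted fold has no fixed size.

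The genes were grouped by function into 54 lists holding 1379 tested genes, of which 227 were called higher and 135 lower. Some genes are in several lists, which hold 1551 entries for 1434 different symbols. The highest shares of members called higher were in annexins, S100 proteins and cytoskeleton (24 of 37), lipid-associated macrophage markers (10 of 18) and matrix glycoproteins (16 of 32), beside 5.21% of all genes tested. Those of members called lower were in hepatocyte transcription factors (8 of 20), urea cycle and amino acid catabolism genes (16 of 45) and fatty acid oxidation genes (16 of 46), beside 4.44%. The other 1386 called genes were in no list. A called gene given with its libraries' values kept its call with each of the 9 libraries left out in turn, unless its highest adjusted p on leaving out 1 library is given. This was not checked for the long noncoding RNAs given as examples at the end. Whether reads were counted by strand is not given in the sources used here, so reads of a gene and of one that overlaps it cannot be told apart. Among the genes given with values this touches Acsl1, Ccnd1, Cdkn1a, Cebpa, Col4a1, Ctss, Cxcl16, Cygb, Ddit3, Egfr, G6pdx, Hamp, Hk3, Hnf4a, Igf1, Irgm2, Krt8, Lipe, Mt2, Nlrc5, Pklr, Pkm, Slco2b1, Stab2, Tef and Timp1. In bulk RNA, more cells of a type and more RNA per cell cannot be told apart.

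**Figure D3:**
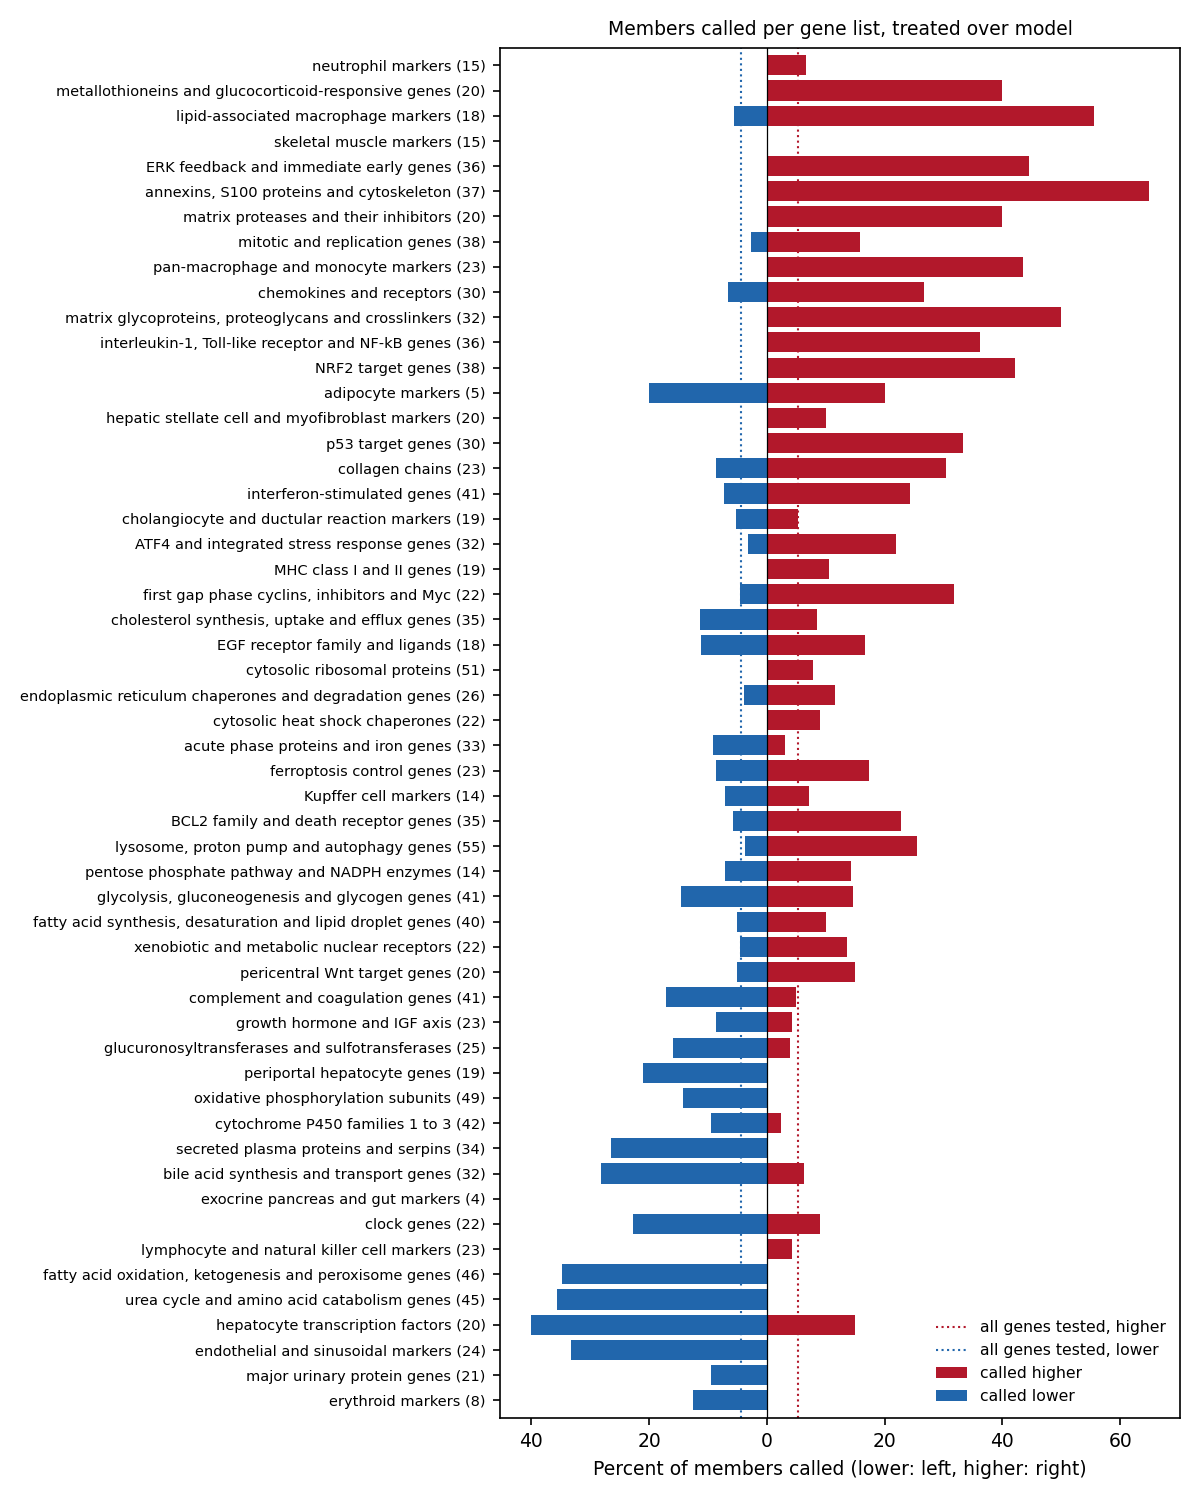
Percent of the members tested in each gene list that were called higher (red, to the right) or lower (blue, to the left), ordered by the median log2 fold change of the list, with the number of members in parentheses. Dotted lines mark the shares over all genes tested, 5.21% higher and 4.44% lower.

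Genes of macrophages were higher in the treated livers. Of 23 pan-macrophage and monocyte markers, 10 rose and 0 fell, with a median log2 difference of 1.09, and 9 rose without model replicate 1. Their summed level was 292 to 395 CPM in the model and 989 to 1075 CPM in the treated livers. Lyz2, the lysozyme of myeloid cells, at chr10:117277331-117282321, stood at 32.5, 61.2 and 27.5 CPM in model replicates 1 to 3 and 230.5, 327 and 226 CPM in treated replicates 1 to 3, 6.46-fold higher (log2 difference 2.69 ± 0.31, SE, adjusted p = 0.0018). Ctss, a lysosomal protease of antigen-presenting cells, went from 22.2, 28.7 and 18.3 to 130.4, 141 and 151 CPM (log2 difference 2.61 ± 0.18, SE, adjusted p = 5.6e-05). Mpeg1, a pore-forming protein of phagocytes, went from 53.9, 47.1 and 55.4 to 207, 156 and 187 CPM (log2 difference 1.81 ± 0.12, SE, adjusted p = 5.6e-05). The model and treated libraries of these genes did not overlap, as in every called gene and in 31.2% of all genes tested. Cd68, a lysosomal membrane protein of macrophages, was 3.63-fold higher (log2 difference 1.86 ± 0.19, SE, adjusted p = 0.00035).

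The list of lipid-associated macrophages, phagocytes described around dying fat-laden cells, had 10 of 18 members higher and Apoe lower. Lgals3, which encodes the carbohydrate-binding galectin-3, was at 11.7, 17.4 and 9.61 CPM in the model and 137, 158 and 125 CPM in the treated livers (log2 difference 3.44 ± 0.27, SE, adjusted p = 0.00023). Mmp12, the macrophage elastase, was at 12.3, 19.5 and 7.23 CPM in model and 194, 216 and 173 CPM in treated livers (log2 difference 3.91 ± 0.39, SE, adjusted p = 0.0013). In the control livers Lgals3 was at 3.43, 2.15 and 3.83 CPM and Mmp12 at 1.48, 1.58 and 0.784 CPM. Atp6v0d2, a proton pump subunit of macrophages and osteoclasts, was 5.13-fold higher (log2 difference 2.36 ± 0.19, SE, adjusted p = 0.00011). Trem2, a lipid-sensing receptor that defines these cells, was at 0.793, 2.13 and 1.96 CPM in the model and 11.1, 10.3 and 12.3 CPM in the treated livers. It missed the threshold (adjusted p = 0.078), although its libraries did not overlap, as in 31.2% of all genes tested. Apoe, made by macrophages and in far larger amounts by hepatocytes, fell from 22865, 19601 and 18918 to 13765, 14825 and 15887 CPM (log2 difference -0.46 ± 0.13, SE, adjusted p = 0.041), a call lost on leaving out any of 7 single libraries (highest adjusted p = 0.15).

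Markers of resident Kupffer cells gave calls in both directions, 14.3% of them beside 9.65% of all genes tested. Of 14, 1 rose (Il18bp, highest adjusted p on leaving out 1 library = 0.091) and 1 fell (Slc40a1), and their sum was 501 to 569 CPM in the model and 431 to 681 CPM in the treated livers, overlapping ranges. Clec4f, a lectin restricted to Kupffer cells, was at 117, 137 and 104 CPM in model and 73.8, 90.2 and 171 CPM in treated livers (adjusted p = 0.91). Timd4, a receptor for dying cells on resident macrophages, was at 5.15, 6.51 and 6.47 CPM in model and 4.14, 4.55 and 8.88 CPM in treated livers (adjusted p = 0.96). Slc40a1, the iron exporter ferroportin, which hepatocytes also make, went from 186, 138 and 152 to 85.5, 72.7 and 98.8 CPM (log2 difference -0.89 ± 0.14, SE, adjusted p = 0.0038). Of 55 lysosome, proton pump and autophagy genes, 14 rose and 2 fell. The falls were Ctsf and Gabarapl1, the latter lost on leaving out 7 single libraries (highest adjusted p = 0.16). Among the rises was Ctsd, the main lysosomal aspartic protease, which went from 428, 391 and 386 to 742, 781 and 713 CPM (log2 difference 0.89 ± 0.10, SE, adjusted p = 0.00054). Ctsf, another cathepsin, went from 38.9, 35.03 and 32.3 to 21.4, 21.8 and 21.2 CPM (log2 difference -0.72 ± 0.10, SE, adjusted p = 0.0015).

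Other leukocytes gave few calls, 6.67% of neutrophil and 4.35% of lymphocyte and natural killer cell markers, beside 9.65% of all genes tested. The 15 neutrophil markers had a median log2 difference of 1.58, or 1.21 without model replicate 1. Their lowest was 0.149, so all leaned higher, though few passed the test. In the neutrophil list, 1 of 15 was called higher, Lcn2, an iron-sequestering protein that injured hepatocytes also secrete, at 60.3, 86.05 and 65.6 CPM in the model and 775, 449.5 and 603 CPM in the treated livers (log2 difference 3.11 ± 0.53, SE, adjusted p = 0.014). Omitting model replicate 1 or model replicate 3 ended that call (highest adjusted p = 0.058). The list's sum was 77.4, 123 and 102 CPM in the model and 818, 465 and 817 CPM in the treated livers. Lcn2 made up most of that sum in each of these libraries. S100a8, a granule protein that defines neutrophils, was at 2.43, 5.63 and 5.74 CPM in model and 4.96, 1.65 and 32.1 CPM in treated livers, with treated replicate 3 apart from the rest (adjusted p = 0.45). Among 23 lymphocyte and natural killer cell markers 1 rose, Il7r, the receptor for interleukin-7, from 0.883, 0.816 and 0.315 to 9.50, 11.8 and 6.89 CPM (log2 difference 3.80 ± 0.42, SE, adjusted p = 0.00052). The T cell receptor subunit Cd3e was at 0.738, 1.68 and 0.752 CPM in model and 0.367, 0.275 and 0.236 CPM in treated livers (adjusted p = 0.097), and the list's median log2 difference was -0.42. Of 19 MHC genes, 2 rose, or 4 with library totals. The pair were of class II, Cd74, the invariant chain, and H2-Ab1, the latter going from 15.2, 15.8 and 9.31 to 34.4, 34.1 and 43.9 CPM (log2 difference 1.48 ± 0.28, SE, adjusted p = 0.011). Omitting model replicate 2 or 3 ended the call of Cd74 (highest adjusted p = 0.062) and left 1, and without treated replicate 2 the list had 4.

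Signals that call and steer leukocytes were mixed. Of 36 genes of the interleukin-1, Toll-like receptor and NF-kB axis, 13 rose and 0 fell, or 7 if model replicate 1 and 8 if model replicate 3 was omitted. Tnfaip3, the NF-kB inhibitor A20, went from 3.40, 5.53 and 3.95 to 13.8, 18.8 and 13.8 CPM (log2 difference 1.85 ± 0.25, SE, adjusted p = 0.0015). Tlr2, a receptor for bacterial lipoproteins, went from 2.61, 3.55 and 3.78 to 11.4, 10.1 and 9.32 CPM (log2 difference 1.63 ± 0.22, SE, adjusted p = 0.0013). Of 30 chemokines and receptors, 8 rose and 2 fell, and 4 rose when any single model library, treated replicate 1 or treated replicate 3 was left out. Cxcl16, a membrane-bound chemokine of macrophages, was 2.80-fold higher (log2 difference 1.49 ± 0.29, SE, adjusted p = 0.01). The chemokines called lower were Cxcl11, whose call was lost on leaving out 5 single libraries (highest adjusted p = 0.11), and Cxcl12. Cxcl12, the homing signal that binds Cxcr4, went from 319, 264 and 299 to 178, 176 and 167 CPM (log2 difference -0.76 ± 0.11, SE, adjusted p = 0.0022), and Cxcr4 was among the genes that rose.

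Interferon-stimulated genes changed in both directions. Of 41, 10 rose, 3 fell and 28 did not pass the test, with 6 rising once model replicate 1 was omitted, 6 once model replicate 2 was, and 1 falling without model replicate 3 or treated replicate 1. The genes called higher were Oas1a, Oas1g, Oas3, Oasl2, Usp18, Rsad2, Irf7, Ifi27, Ifi44 and Cxcl10. Oas1g, a sensor of double-stranded RNA with close paralogues between which reads may be shared, was at 1.12, 2.05 and 2.33 CPM in model and 15.3, 4.64 and 11.1 CPM in treated livers (log2 difference 2.50 ± 0.44, SE, adjusted p = 0.0065). The genes called lower were Ifi47, Irgm2 and Nlrc5, and the call of Ifi47 was lost on leaving out 6 single libraries (highest adjusted p = 0.12). Irgm2, an immunity-related GTPase, fell from 49.4, 46.9 and 49.2 to 29.7, 23.4 and 21.1 CPM (log2 difference -0.97 ± 0.18, SE, adjusted p = 0.007). Nlrc5, the transactivator of MHC class I genes, fell from 28.5, 32.3 and 33.7 to 15.7, 21.7 and 22.8 CPM (log2 difference -0.65 ± 0.15, SE, adjusted p = 0.025), a call lost without model replicates 2 or 3 or treated replicate 1 (highest adjusted p = 0.084). Treated replicate 1 was the highest library in 8 of the 10 genes that rose, and in 401 of the 943 genes called higher.

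Matrix genes rose across several families. Of 32 matrix glycoproteins, proteoglycans and crosslinkers, 16 rose and 0 fell, 7 without model replicate 1, 9 without model replicate 3 and 10 without treated replicate 2. Nid1, which links laminin to collagen IV in basement membranes, went from 8.03, 11.1 and 8.45 to 39.7, 31.4 and 24.4 CPM (log2 difference 1.79 ± 0.21, SE, adjusted p = 0.00064). Sparc, a collagen-binding glycoprotein, went from 39.1, 39.1 and 39.5 to 88.2, 97.2 and 98.6 CPM (log2 difference 1.27 ± 0.15, SE, adjusted p = 0.00074), and Postn, which encodes periostin, was 3.42-fold higher (log2 difference 1.78 ± 0.24, SE, adjusted p = 0.0015). Of 23 collagen chains, 7 rose and 2 fell, and treated replicate 2 was the highest library in all 7. Col1a2, a chain of fibrillar type I collagen, went from 9.49, 15.4 and 10.6 to 46.6, 69.5 and 45.4 CPM (log2 difference 2.19 ± 0.24, SE, adjusted p = 0.00077). Col4a1, of basement membranes, went from 23.99, 27.5 and 22.2 to 62.1, 67.7 and 63.7 CPM (log2 difference 1.39 ± 0.17, SE, adjusted p = 0.00084). The 2 chains called lower were Col18a1 and Col27a1, and no collagen was called lower without model replicate 1, model replicate 3 or treated replicate 3.

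Enzymes that cut matrix rose too, 8 of 20 proteases and inhibitors with 0 lower and a median log2 difference of 1.13. Adam8, a leukocyte surface protease, was at 1.42, 2.45 and 2.13 CPM in the model and 26.01, 29.6 and 28.5 CPM in the treated livers, 13.96-fold higher (log2 difference 3.80 ± 0.37, SE, adjusted p = 0.00048). Timp1, a secreted inhibitor of metalloproteinases, was low throughout, at 0.450, 0.966 and 0 CPM in model and 3.77, 3.89 and 2.01 CPM in treated livers, and missed the threshold (adjusted p = 0.27). In plasminogen activation, Plau, which encodes urokinase, and its receptor Plaur both rose. Plau was at 1.64, 1.57 and 1.07 CPM in model and 8.27, 6.78 and 4.03 CPM in treated livers (log2 difference 2.16 ± 0.33, SE, adjusted p = 0.0027). Plaur was at 0.738, 1.05 and 0.192 CPM in model and 8.77, 6.995 and 5.73 CPM in treated livers (log2 difference 3.43 ± 0.54, SE, adjusted p = 0.0035). Markers of stellate cells and myofibroblasts gave 2 calls of 20, both higher, with sums of 211 to 255 CPM in the model and 275 to 331 CPM in the treated livers. Cygb, a globin of stellate cells, was 2.31-fold higher (log2 difference 1.21 ± 0.22, SE, adjusted p = 0.0067), whereas Acta2, the smooth muscle actin of myofibroblasts, was at 2.88, 0.766 and 0.787 CPM in model and 3.48, 4.49 and 3.19 CPM in treated livers (adjusted p = 0.41). Tgfb1, which drives matrix synthesis, was called higher at 2.85, 6.01 and 3.97 CPM in model and 9.81, 9.55 and 9.69 CPM in treated livers (log2 difference 1.18 ± 0.29, SE, adjusted p = 0.027), a call lost on leaving out 5 single libraries (highest adjusted p = 0.092).

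The largest share of calls was among cytoskeletal, annexin and S100 genes. Of 37, 24 rose and 0 fell, with a median log2 difference of 1.19, and 20 rose without model replicate 1. The list also holds Lgals1, Lgals3 and Lcn2, which were among the rises, and Lgals3 and Lcn2 are counted in other lists too. Krt8, the type II keratin of hepatocytes, at chr15:101996698-102004482, went from 236, 196 and 217 to 748, 646 and 609 CPM (log2 difference 1.62 ± 0.15, SE, adjusted p = 0.00019). Its partner Krt18 was also called higher. Actg1, a cytoplasmic actin, went from 78.8, 70.5 and 63.6 to 282, 210.3 and 205 CPM (log2 difference 1.71 ± 0.14, SE, adjusted p = 0.00011), and reads may be shared with other actin genes. Anxa1, a phospholipid-binding annexin, was 4.78-fold higher (log2 difference 2.26 ± 0.20, SE, adjusted p = 0.00018). Keratins of bile duct cells were low, with Krt7 at 0.702, 0.499 and 0.630 CPM in model and 0.440, 0.642 and 1.78 CPM in treated livers (adjusted p = 0.56) and Krt19 at 0.180, 0.499 and 0.525 CPM in model and 0.924, 0.351 and 0.567 CPM in treated livers (adjusted p = 0.67). The 19 cholangiocyte markers gave 1 call higher, Anxa4, and 1 lower, Cldn3, both lost on leaving out single libraries (highest adjusted p = 0.055 and 0.064), and their summed level was 281 to 294 CPM in the model and 246 to 267 CPM in the treated livers.

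**Figure D4:**
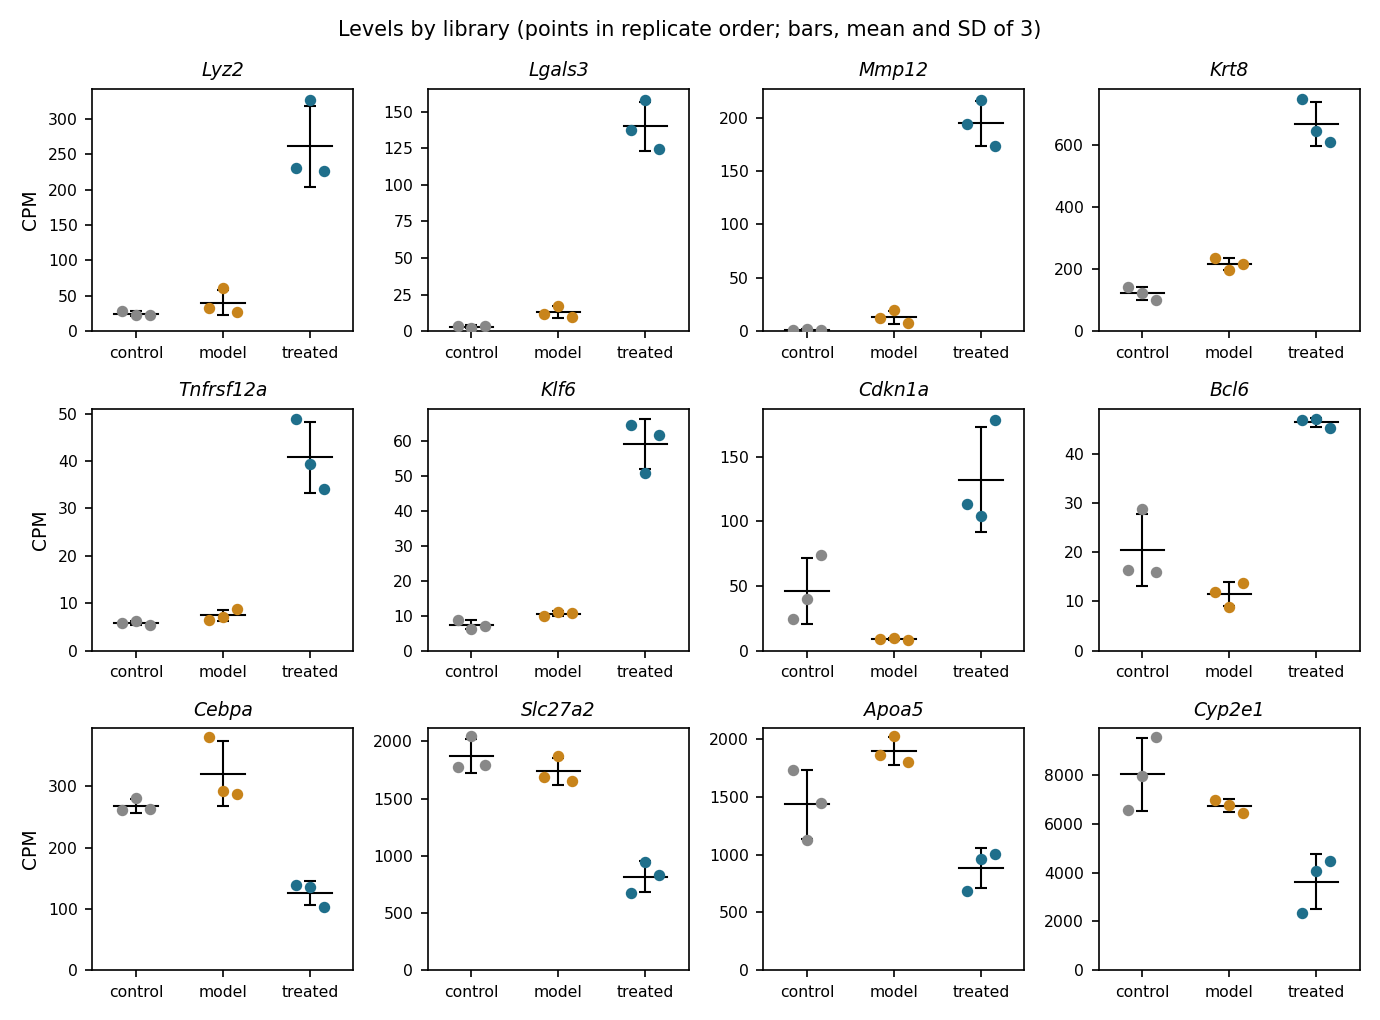
CPM of 12 genes in each of the 9 libraries, with the mean and SD of the 3 libraries of a group drawn as bars; every axis starts at 0. In all 12 the treated libraries lie wholly above or wholly below the model libraries. This follows from their choice, since all are called genes and no called gene had libraries that overlap. Of all genes tested, 31.2% had libraries that did not overlap.

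Genes induced within minutes of growth factor or stress signalling were higher in the treated livers. Of 36 ERK feedback and immediate early genes, 16 rose and 0 fell, and 14 rose without model replicate 1. Klf6, a zinc finger transcription factor at chr13:5861482-5870394, went from 9.94, 11.01 and 10.9 to 64.5, 50.9 and 61.9 CPM (log2 difference 2.48 ± 0.15, SE, adjusted p = 5.6e-05). Atf3, a stress-induced repressor, went from 2.45, 2.43 and 2.71 to 31.6, 32.3 and 23.97 CPM (log2 difference 3.53 ± 0.25, SE, adjusted p = 5.6e-05), and Jund, an AP-1 subunit, went from 46.5, 52.5 and 50.6 to 175, 109 and 161 CPM (log2 difference 1.57 ± 0.16, SE, adjusted p = 0.00035). Egr1, among the most transient of these genes, varied widely, at 5.26, 12.3 and 14.02 CPM in the model, 109, 31.4 and 68.9 CPM in the treated and 134, 21.4 and 10.1 CPM in the control livers (adjusted p = 0.19).

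The EGF receptor family moved in both directions. Of 18 receptors, ligands and regulators, 3 rose, all ligands, and 2 fell, or 5 and 1 with library totals. Tgfa, a ligand of the EGF receptor, went from 14.9, 17.4 and 19.5 to 46.2, 34.4 and 31.6 CPM (log2 difference 1.11 ± 0.16, SE, adjusted p = 0.002). Nrg1, a ligand of Erbb3 and Erbb4, went from 0.234, 0.300 and 0.875 to 10.5, 3.50 and 3.05 CPM, with treated replicate 1 apart (log2 difference 3.59 ± 0.68, SE, adjusted p = 0.0098). Btc, which encodes betacellulin, was the third (highest adjusted p on leaving out 1 library = 0.1). Erbb3, the receptor of neuregulins in hepatocytes, fell from 141, 119 and 178 to 87.5, 85.3 and 90.7 CPM (log2 difference -0.73 ± 0.15, SE, adjusted p = 0.013). Lrig3, a negative regulator of the family, was also called lower (highest adjusted p on leaving out 1 library = 0.092). The receptor gene Egfr was at 453, 698 and 637 CPM in model and 371, 429 and 606 CPM in treated livers, overlapping ranges (adjusted p = 0.48). Hbegf, another ligand, was at 0.702, 0.899 and 0.910 CPM in model and 1.41, 1.15 and 1.73 CPM in treated livers (adjusted p = 0.35), and Areg, which encodes amphiregulin, had too few counts to be tested.

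NRF2 is a transcription factor that is released from its inhibitor KEAP1 by oxidants and electrophiles and then binds antioxidant response elements, short sites beside genes of glutathione, thioredoxin, quinone and NADPH metabolism. Of 38 target genes, 16 were higher and 0 lower in the treated livers, with a median log2 difference of 0.79. The count was 9 when model replicate 1, 2 or 3 was omitted in turn and 1 with model replicate 1 as the lone model library. The core letters of the element are TGACNNNGC, or GCNNNGTCA as their reverse complement, both read along the gene's strand. They were searched in the 250 bases before each gene's start in RefSeq, build GRCm38.p6. They were present in 4 of the 12 called target genes with a window (33.3%), in 5 of 20 uncalled ones and in 1660 of 12157 genes tested with a window (13.7%). These shares are a description of letters, not of binding. The windows of the 4 called genes are shown because they are the called targets that hold the letters, from 5′ to 3′ on the gene's strand and ending at the base before the start, with the core in capitals. Abcc4 has a second window with a core, at a start further downstream, which is not shown.
Txnrd1 (chr10:82858956-82859205, plus strand): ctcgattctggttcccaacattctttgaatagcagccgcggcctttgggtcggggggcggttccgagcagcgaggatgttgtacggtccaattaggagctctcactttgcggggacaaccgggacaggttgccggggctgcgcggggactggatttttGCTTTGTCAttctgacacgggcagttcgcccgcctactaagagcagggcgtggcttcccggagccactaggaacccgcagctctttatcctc
G6pdx (chrX:74428881-74429130, minus strand): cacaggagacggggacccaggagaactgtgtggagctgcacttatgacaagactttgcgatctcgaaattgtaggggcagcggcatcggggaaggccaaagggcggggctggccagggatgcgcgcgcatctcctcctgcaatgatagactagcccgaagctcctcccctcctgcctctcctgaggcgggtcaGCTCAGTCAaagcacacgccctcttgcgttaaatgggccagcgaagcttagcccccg
Abcc4 (chr14:118706220-118706469, minus strand): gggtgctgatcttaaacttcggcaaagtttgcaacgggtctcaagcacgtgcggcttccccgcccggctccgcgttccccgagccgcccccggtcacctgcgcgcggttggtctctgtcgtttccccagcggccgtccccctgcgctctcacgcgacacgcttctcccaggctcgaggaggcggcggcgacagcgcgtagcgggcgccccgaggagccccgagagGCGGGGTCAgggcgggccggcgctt
Ugdh (chr5:65435843-65436092, minus strand): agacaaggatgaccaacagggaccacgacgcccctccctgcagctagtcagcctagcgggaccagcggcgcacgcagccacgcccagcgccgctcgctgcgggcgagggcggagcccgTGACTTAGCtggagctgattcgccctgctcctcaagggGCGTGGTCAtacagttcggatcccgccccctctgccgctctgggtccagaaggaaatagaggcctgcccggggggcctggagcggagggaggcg

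Abcc4, a pump that exports bile acids and conjugates into blood, was at 2.34, 3.996 and 4.46 CPM in model replicates 1 to 3 and 61.2, 23.9 and 24.03 CPM in treated replicates 1 to 3 (log2 difference 3.34 ± 0.52, SE, adjusted p = 0.008). Ugdh, which makes the glucuronic acid donor of conjugation, went from 204, 175 and 223 to 452, 347 and 332 CPM (log2 difference 0.91 ± 0.16, SE, adjusted p = 0.0053). G6pdx, which feeds NADPH from glucose, was 3.23-fold higher (log2 difference 1.69 ± 0.22, SE, adjusted p = 0.0012), and Txnrd1, a thioredoxin reductase, was also called higher. Among the other targets, Srxn1, which repairs oxidised peroxiredoxins, went from 43.6, 48.3 and 38.7 to 673, 235 and 218 CPM (log2 difference 3.11 ± 0.44, SE, adjusted p = 0.0063). Nqo1, a quinone reductase, went from 6.70, 7.49 and 4.13 to 27.3, 15.2 and 13.8 CPM (log2 difference 1.62 ± 0.29, SE, adjusted p = 0.0064). The treated libraries were not alike in these genes. Treated replicate 1 was highest in 13 of the 16 (81.2%), compared with 42.5% of all genes called higher, and its Srxn1 and Abcc4 levels lay far above those of replicates 2 and 3.

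The calls of some other targets were lost on leaving out single libraries. Gstm3, a glutathione transferase with close paralogues between which reads may be shared, was at 116, 332 and 331 CPM in the model and 2300.1, 1086 and 1308 CPM in the treated livers (log2 difference 2.59 ± 0.55, SE, adjusted p = 0.03), and lost its call on leaving out 4 single libraries (highest adjusted p = 0.079). Cbr3, a carbonyl reductase, was at 0.702, 0.699 and 0.542 CPM in the model and 24.1, 7.15 and 7.08 CPM in the treated livers (log2 difference 4.30 ± 0.82, SE, adjusted p = 0.016), and lost its call on leaving out any 1 of the 3 model libraries (highest adjusted p = 0.067). Gclc, the rate-limiting subunit of glutathione synthesis, was at 260.5, 186 and 286 CPM in the model and 941, 453 and 470.4 CPM in the treated livers (log2 difference 1.35 ± 0.32, SE, adjusted p = 0.034), with a highest adjusted p of 0.094. Hmox1, which degrades haem, rose less, from 35.6, 26.6 and 33.1 to 51.5, 56.3 and 53.7 CPM (log2 difference 0.76 ± 0.18, SE, adjusted p = 0.026), and lost its call on leaving out any single model or treated library (highest adjusted p = 0.084). The metallothionein Mt2, which binds zinc, was at 227, 200.4 and 147 CPM in the model and 385, 454 and 837 CPM in the treated livers and missed the threshold (adjusted p = 0.07), as did Mt1 (adjusted p = 0.14).

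**Figure D5:**
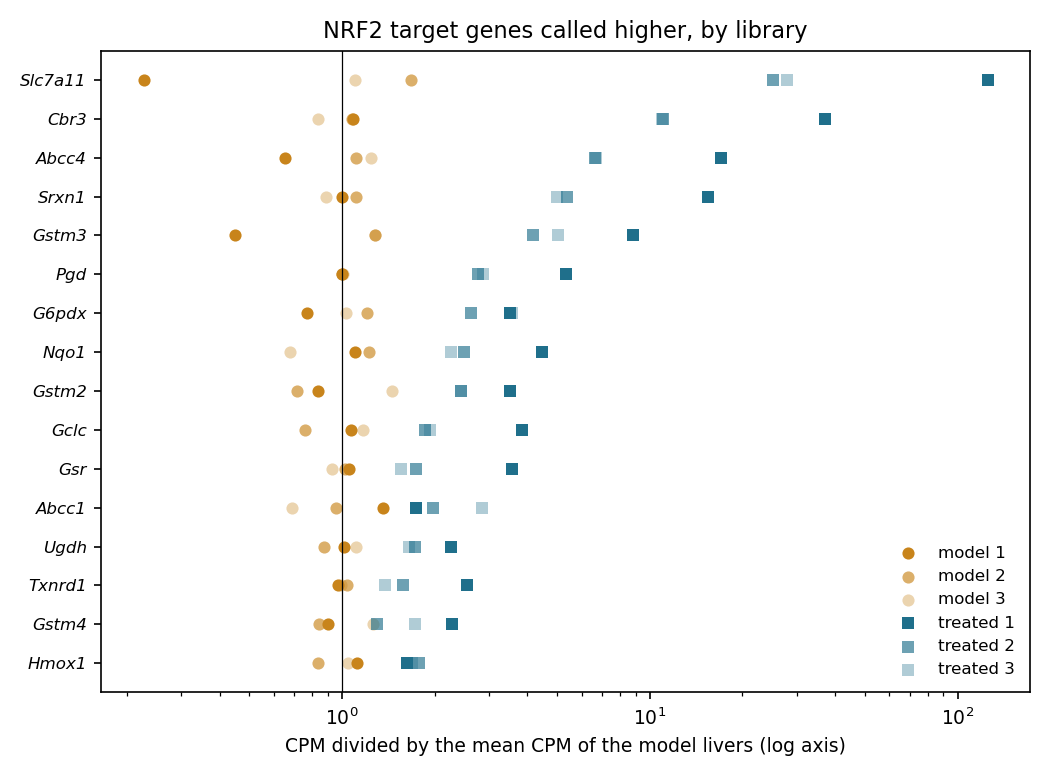
The 16 NRF2 target genes called higher, with each model and treated library's CPM divided by the mean CPM of the model livers on a log axis; the line at 1 is that mean. Treated replicate 1 is the rightmost point in 13 of the 16 genes.

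Genes of the p53 response rose in part. Of 30 targets, 10 rose and 0 fell, 7 without model replicate 1. Cdkn1a, the cyclin-dependent kinase inhibitor p21, at chr17:29090976-29100727, was at 8.99, 9.69 and 7.997 CPM in the model and 113, 104 and 179 CPM in the treated livers, 14.9-fold higher (log2 difference 3.89 ± 0.44, SE, adjusted p = 0.0025). The control livers lay between them, at 24.7, 39.9 and 74.3 CPM. Gdf15, a secreted stress hormone that p53 and ATF4 both induce, went from 6.21, 3.91 and 7.52 to 33.7, 36.98 and 58.2 CPM (log2 difference 2.87 ± 0.29, SE, adjusted p = 0.00053). Ccng1, a cyclin induced by p53, rose by less, from 30.8, 30.4 and 31.9 to 41.8, 42.7 and 45.01 CPM (log2 difference 0.48 ± 0.09, SE, adjusted p = 0.0083). Of 32 genes of ATF4 and the integrated stress response, 7 rose and 1 fell. Ddit3, the stress factor CHOP, went from 9.26, 8.99 and 9.22 to 20.1, 19.3 and 13.7 CPM (log2 difference 0.95 ± 0.15, SE, adjusted p = 0.0039), while Fgf21, a fasting and stress hormone, was at 5.49, 3.10 and 3.22 CPM in model and 3.42, 4.19 and 3.31 CPM in treated livers (adjusted p = 0.87). Of 26 endoplasmic reticulum chaperone and degradation genes, 3 rose and 1 fell, but 11 rose with library totals and 1 without model replicate 3 or treated replicate 2. Xbp1, the factor that expands the endoplasmic reticulum, was the one lower, from 305, 264 and 259 to 198, 170.1 and 174 CPM (log2 difference -0.61 ± 0.11, SE, adjusted p = 0.0073).

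Cell cycle genes rose unevenly. Of 38 mitotic and replication genes, 6 rose and 1 fell, and 3 rose without model replicate 1 and 3 without treated replicate 3. Subunits of the replicative helicase rose, with Mcm6 going from 5.31, 5.43 and 6.67 to 11.4, 11.9 and 15.8 CPM (log2 difference 1.17 ± 0.19, SE, adjusted p = 0.0042). Pcna, the sliding clamp of DNA polymerase, went from 11.8, 9.57 and 10.1 to 15.9, 17.3 and 16.4 CPM (log2 difference 0.66 ± 0.13, SE, adjusted p = 0.011). Mki67, present in all dividing cells, was at 1.89, 7.79 and 7.63 CPM in model and 11.5, 10.2 and 18.7 CPM in treated livers (adjusted p = 0.16), with model replicate 1 lower than the other model libraries. Top2a, which untangles DNA, was at 1.40, 3.80 and 2.68 CPM in model and 4.02, 4.09 and 11.1 CPM in treated livers (adjusted p = 0.17). Ccnd1, the cyclin of entry into the cycle, went from 21.6, 30.9 and 28.2 to 58.2, 79.1 and 52.8 CPM (log2 difference 1.24 ± 0.24, SE, adjusted p = 0.013), and the inhibitor Cdkn1c rose as well (log2 difference 1.90 ± 0.32, SE, adjusted p = 0.0051). In the BCL2 and death receptor list, 8 of 35 rose and 2 fell, 5 rising without model replicate 1 and 4 without treated replicate 1. Tnfrsf12a, the receptor of the cytokine TWEAK, was at 6.47, 7.16 and 8.71 CPM in the model and 48.9, 39.4 and 33.995 CPM in the treated livers (log2 difference 2.45 ± 0.17, SE, adjusted p = 5.6e-05).

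Genes that respond to glucocorticoids rose, 8 of 20 in a list that also holds the metallothioneins, or 5 when model replicate 1 or model replicate 3 was omitted. Zbtb16, a zinc finger repressor, went from 4.45, 6.18 and 5.16 to 28.9, 32.3 and 32.1 CPM (log2 difference 2.56 ± 0.27, SE, adjusted p = 0.00072), and was at 27.04, 55.9 and 28.6 CPM in the control livers. Sgk1, a kinase that acts on ion transport, went from 8.20, 14.4 and 12.1 to 32.4, 37.5 and 56.2 CPM (log2 difference 1.86 ± 0.24, SE, adjusted p = 0.0017). Of 22 genes in the clock list, 2 rose and 5 fell. The rises numbered 1 without model replicate 1 and 4 without treated replicate 2, and the falls numbered 2 without model replicate 1, model replicate 3 or treated replicate 1 and 3 without model replicate 2 or treated replicate 3. With library totals 5 rose and 3 fell. The falls included Per3, Nr1d2, Tef and Tspan4, the last no core clock gene. The activator Npas2 rose from 0.775, 0.383 and 0.437 to 2.33, 1.77 and 3.67 CPM (log2 difference 2.28 ± 0.42, SE, adjusted p = 0.008). Tef, an output factor, fell from 186, 206 and 158 to 58.8, 89.2 and 41.6 CPM (log2 difference -1.54 ± 0.24, SE, adjusted p = 0.0052). The labels give no hour of sampling.

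More hepatocyte transcription factors fell than rose. Of 20 hepatocyte transcription factors, 8 fell and 3 rose, with 6 falling and 1 rising without model replicate 1 and 5 falling and 1 rising without model replicate 3. Cebpa, which drives liver metabolic genes, at chr7:35119293-35121928, went from 382, 292 and 288 to 139.6, 135 and 104 CPM (log2 difference -1.34 ± 0.15, SE, adjusted p = 0.00052). Nfib and Onecut2 also fell, Onecut2 from 70.4, 99.8 and 77.2 to 45.999, 49.5 and 36.03 CPM (log2 difference -0.91 ± 0.15, SE, adjusted p = 0.0044). Others called lower included Foxa1, Foxa2, Xbp1 and Nfia. Bcl6, a repressor of fatty acid oxidation genes in liver, rose from 11.9, 8.94 and 13.7 to 46.7, 46.98 and 45.3 CPM (log2 difference 2.01 ± 0.24, SE, adjusted p = 0.00097), with the 3 treated libraries within a narrow range. Cebpb, induced in the acute phase, was called higher (highest adjusted p on leaving out 1 library = 0.069). Hnf4a, a central factor of hepatocyte identity, was the third called higher, from 546, 463 and 496 to 634, 689 and 636 CPM (log2 difference 0.38 ± 0.11, SE, adjusted p = 0.0497), and lost its call on leaving out any of the 9 libraries (highest adjusted p = 0.15).

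Fatty acid oxidation genes were lower. Of 46 genes of oxidation, ketone synthesis and peroxisomes, 16 fell and 0 rose, with a median log2 difference of -0.45. The count was 4 without model replicate 1 or treated replicate 1, 5 without treated replicate 3 and 8 without model replicate 2, and with library totals 5 fell and 1 rose. Slc27a2, a very long chain acyl-CoA synthetase at chr2:126552407-126588243, was at 1691, 1871 and 1654 CPM in the model and 674, 945 and 828 CPM in the treated livers (log2 difference -1.09 ± 0.14, SE, adjusted p = 0.001). Acsl1, which activates long chain fatty acids, went from 1197, 938 and 1053 to 422, 685 and 485 CPM (log2 difference -1.002 ± 0.17, SE, adjusted p = 0.005). In the control livers Slc27a2 was at 1777, 2048 and 1792 CPM and Acsl1 at 1496, 1488 and 1461 CPM. Cyp4a10, an omega-hydroxylase induced by PPARalpha, was called lower, from 772, 1052 and 459.6 to 165, 215 and 95.5 CPM (log2 difference -2.27 ± 0.52, SE, adjusted p = 0.037), and lost the call on leaving out 6 single libraries (highest adjusted p = 0.12). Its neighbour Cyp4a14 missed the threshold, at 478, 738 and 279 CPM in model and 143, 187 and 113 CPM in treated livers (adjusted p = 0.24). Of 49 oxidative phosphorylation subunits, 7 fell and 0 rose. The falls numbered 2 without model replicate 1, model replicate 3, treated replicate 1 or treated replicate 3, 4 without treated replicate 2, and 1 with library totals. Sdhb, the iron-sulphur subunit of succinate dehydrogenase, went from 189.9, 178 and 179 to 118, 135 and 130.2 CPM (log2 difference -0.51 ± 0.10, SE, adjusted p = 0.0083).

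Genes of amino acid breakdown were lower. Of 45 genes of the urea cycle and amino acid breakdown, 16 fell and 0 rose, 6 without model replicate 1 and 9 without treated replicate 1, and with library totals 11 fell and 1 rose. Hal, Uroc1 and Ftcd, which act in turn on histidine, all fell. Hal went from 285, 229 and 298 to 144, 136 and 137 CPM (log2 difference -0.96 ± 0.15, SE, adjusted p = 0.0036), and Ftcd from 524, 540.4 and 525 to 345, 324 and 332 CPM (log2 difference -0.67 ± 0.10, SE, adjusted p = 0.0031). Uroc1 went from 471, 399 and 427 to 271, 303 and 282 CPM (log2 difference -0.60 ± 0.11, SE, adjusted p = 0.0072). The histidine enzymes mark hepatocytes near the portal vein, and 4 of 19 periportal genes fell and 0 rose, also with library totals and without model replicate 1. Of these, Hal, Gls2 and Uroc1 are already counted in the amino acid list. Of 20 pericentral genes, 3 rose and 1 fell, and each of those calls except Slc13a3 was lost on leaving out single libraries. The median log2 difference was -0.28 for the periportal and -0.21 for the pericentral list.

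In sugar metabolism the direction differed by isoform. Of 41 genes of glycolysis, gluconeogenesis and glycogen, 6 rose and 6 fell, and their median log2 difference of -0.05 turned positive, at 0.12, with library totals. Pkm, the pyruvate kinase of non-hepatocyte and proliferating cells, rose from 14.8, 13.6 and 10.5 to 43.8, 45.04 and 46.8 CPM (log2 difference 1.80 ± 0.14, SE, adjusted p = 6.8e-05). Pklr, its hepatocyte counterpart, fell from 135, 131 and 128 to 77.99, 90.9 and 64.3 CPM (log2 difference -0.76 ± 0.15, SE, adjusted p = 0.012). Likewise Hk3, a hexokinase of myeloid cells, rose from 6.81, 5.54 and 6.91 to 18.6, 16.7 and 20.4 CPM (log2 difference 1.53 ± 0.17, SE, adjusted p = 0.00052). Fbp1, an enzyme of gluconeogenesis, fell from 825, 786 and 822 to 439.9, 427 and 355 CPM (log2 difference -0.99 ± 0.15, SE, adjusted p = 0.0031), and Gys2, the liver glycogen synthase, from 139, 159 and 126 to 58.7, 94.7 and 70.4 CPM (log2 difference -0.92 ± 0.18, SE, adjusted p = 0.012). The isoforms that rose included those of macrophages, whose marker sum rose from 292 to 395 up to 989 to 1075 CPM, and the part of these cells was not tested.

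Genes of fat and cholesterol synthesis gave calls in both directions, in each list below a larger share than the 9.65% of all genes tested. Of 40 fatty acid synthesis and lipid droplet genes, 4 rose and 2 fell, with a median log2 difference of -0.09, or 0.07 with library totals. The falls numbered 1 without model replicate 1 or model replicate 3 and 4 without treated replicate 2. Fasn, the fatty acid synthase, was at 109, 67.96 and 112 CPM in model and 85.4, 132 and 142 CPM in treated livers (adjusted p = 0.56). Scd1, the main desaturase of liver, was at 3123, 1121 and 3157 CPM in model and 1104, 1083 and 1409 CPM in treated livers (adjusted p = 0.39), with model replicate 2 at the level of the treated libraries. Lpin2, a phosphatidate phosphatase, rose from 158, 249 and 194 to 336, 493 and 547 CPM (log2 difference 1.20 ± 0.20, SE, adjusted p = 0.0041), and Lipe, the hormone-sensitive lipase, fell from 18.9, 14.5 and 17.7 to 7.29, 8.75 and 6.88 CPM (log2 difference -1.16 ± 0.15, SE, adjusted p = 0.0012). Of 35 cholesterol genes, 3 rose and 4 fell, or 6 and 1 with library totals, and 0 to 5 fell on leaving out 1 library. Dhcr7, the last enzyme of synthesis, rose from 27.2, 23.1 and 34.2 to 61.1, 52.6 and 77.6 CPM (log2 difference 1.18 ± 0.22, SE, adjusted p = 0.0093), and Soat1, which esterifies cholesterol in macrophages, from 5.51, 6.79 and 4.55 to 18.8, 21.2 and 17.9 CPM (log2 difference 1.78 ± 0.28, SE, adjusted p = 0.0033).

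Among bile acid genes more fell than rose. Of 32 of synthesis and transport, 9 fell and 2 rose, with 5 falling without model replicate 2, treated replicate 1 or treated replicate 3 and 4 with library totals. Cyp8b1, which sets the share of cholic acid, went from 682, 596 and 527 to 234, 313 and 271 CPM (log2 difference -1.14 ± 0.16, SE, adjusted p = 0.0017). Slc10a1, the uptake carrier NTCP, went from 625, 548 and 543 to 210.2, 325 and 263 CPM (log2 difference -1.10 ± 0.16, SE, adjusted p = 0.0025), and Slco2b1, another uptake carrier, from 122, 128 and 123 to 55.4, 81.5 and 76.2 CPM (log2 difference -0.81 ± 0.13, SE, adjusted p = 0.0042). Cyp7a1, the rate-limiting enzyme of bile acid synthesis, was called lower, from 189, 384 and 175 to 78.8, 76.9 and 47.3 CPM, against 60.9, 27.2 and 47.7 CPM in the control livers (log2 difference -1.88 ± 0.42, SE, adjusted p = 0.034). Its call was lost on leaving out 6 single libraries (highest adjusted p = 0.096). Nr1h4, the bile acid receptor FXR, was also called lower (highest adjusted p on leaving out 1 library = 0.062). Treated replicate 1 was the lowest library in 8 of the 9.

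Drug-metabolising enzymes gave calls in both directions, in each list below a larger share than the 9.65% of all genes tested. Of 42 cytochrome P450 genes of families 1 to 3, 4 fell and 1 rose. The falls numbered 2 without model replicate 1, model replicate 3 or treated replicate 3 and 1 without treated replicate 1. Cyp2e1, which oxidises ethanol and acetaminophen, went from 7008, 6778 and 6473 to 2339, 4067 and 4481 CPM (log2 difference -0.90 ± 0.22, SE, adjusted p = 0.03), a call lost without any single model library or treated replicate 2 (highest adjusted p = 0.093). Cyp3a11, the main drug oxidase of mouse liver, was at 6224, 5239 and 6916 CPM in model and 4678, 6263 and 5517 CPM in treated livers, overlapping ranges (adjusted p = 0.62). Cyp1a2, a target of the aryl hydrocarbon receptor, was the one called higher, at 528, 512 and 791 CPM in model and 1209, 1011 and 1321 CPM in treated livers (log2 difference 0.95 ± 0.25, SE, adjusted p = 0.042), but lost its call on leaving out 6 single libraries (highest adjusted p = 0.14). The receptor gene Ahr itself rose from 20.1, 21.7 and 20.8 to 49.1, 52.6 and 47.7 CPM (log2 difference 1.26 ± 0.14, SE, adjusted p = 0.00053). Among 25 glucuronosyltransferases and sulfotransferases, 4 fell and 1 rose, or 2 and 2 with library totals. The falls numbered 1 without model replicate 1, treated replicate 1 or treated replicate 3 and 2 without model replicate 3. Ugt2a3, a glucuronosyltransferase, went from 181, 149 and 176 to 83.7, 98.8 and 111 CPM (log2 difference -0.79 ± 0.12, SE, adjusted p = 0.0035).

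Secreted products of hepatocytes fell in part. Of 34 plasma proteins and serpins, 9 fell and 0 rose. The falls numbered 2 without model replicate 1 or treated replicate 1, 4 without model replicate 2, model replicate 3 or treated replicate 2, and 4 with library totals. Apoa5, a regulator of plasma triglyceride, went from 1860.4, 2031 and 1803 to 685, 963 and 1005 CPM (log2 difference -1.10 ± 0.18, SE, adjusted p = 0.0041). Albumin missed the threshold (adjusted p = 0.24). Of 41 complement and coagulation genes, 7 fell and 2 rose. The falls numbered 2 without model replicate 1, model replicate 3 or treated replicate 1, 3 without treated replicate 2 or 3, 4 without model replicate 2, and 2 with library totals. F7, coagulation factor VII, went from 131, 122 and 128 to 84.3, 83.04 and 87.4 CPM (log2 difference -0.58 ± 0.08, SE, adjusted p = 0.0022), and F3, the tissue factor that starts coagulation with it, from 6.63, 4.73 and 6.54 to 2.19, 2.25 and 2.16 CPM (log2 difference -1.44 ± 0.28, SE, adjusted p = 0.0096). Of 33 acute phase and iron genes, 1 rose and 3 fell, or 4 and 3 with library totals. Steap4, a metalloreductase induced by inflammation, rose from 79.6, 82.7 and 84.9 to 181, 161 and 201 CPM (log2 difference 1.14 ± 0.13, SE, adjusted p = 0.00067). The serum amyloids did not pass, Saa1 at 166, 196 and 316 CPM in model and 230.3, 302 and 406 CPM in treated livers (adjusted p = 0.49) and Saa2 at 60.8, 79.8 and 107 CPM in model and 102, 114 and 190.1 CPM in treated livers (adjusted p = 0.34). Hamp, which encodes the iron hormone hepcidin, varied among the model livers, at 670.1, 80.1 and 414 CPM, and was at 37.2, 58.3 and 176 CPM in the treated livers (adjusted p = 0.23).

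In the growth hormone axis, Igfals, which stabilises circulating IGF1, fell from 127, 111 and 115 to 42.8, 54.2 and 55.1 CPM (log2 difference -1.22 ± 0.18, SE, adjusted p = 0.0024). Igf1 itself was at 646, 618 and 661 CPM in model and 397, 488 and 527 CPM in treated livers. Its libraries did not overlap, as in 31.2% of all genes tested, but it missed the threshold (adjusted p = 0.18). Igfbp1, a binding protein raised by fasting, was called higher at 13.4, 51.6 and 42.4 CPM in model and 148, 204 and 523 CPM in treated livers (log2 difference 3.02 ± 0.69, SE, adjusted p = 0.042), and lost its call on leaving out any of the 9 libraries (highest adjusted p = 0.11). The major urinary proteins, growth hormone targets with near-identical copies between which reads are shared, had 2 of 21 called lower, Mup2 and Mup3 (0 to 3 on leaving out 1 library), and a median log2 difference of -1.15. Mup20 was at 1482, 749 and 985 CPM in model and 456, 925 and 745 CPM in treated livers (adjusted p = 0.25). Of 51 cytosolic ribosomal protein genes, 4 rose and 0 fell, with 0 to 5 rising on leaving out 1 library and 17 with library totals, so their number depends on the scaling.

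Endothelial and sinusoidal markers were lower. Of 24, 8 fell and 0 rose (Kdr, Flt4, Tek, Stab2, Clec4g, Fcgr2b, Oit3 and Dnase1l3), with treated replicate 1 the lowest library in all 8. Their sum was 258 to 273 CPM in the model, 138 to 211 CPM in the treated and 576 to 695 CPM in the control livers. The falls numbered 5 without control replicate 1 or treated replicate 3, 4 without treated replicate 1, 3 without model replicate 1, 2 without model replicate 3, and 0 with model replicate 1 as the lone model library. With library totals 5 fell. Stab2, a scavenger receptor that clears hyaluronan, went from 49.4, 53.7 and 40.6 to 25.8, 30.2 and 32.1 CPM (log2 difference -0.71 ± 0.14, SE, adjusted p = 0.011). Fcgr2b, which removes immune complexes, went from 20.9, 19.9 and 22.4 to 8.87, 12.7 and 12.8 CPM (log2 difference -0.88 ± 0.15, SE, adjusted p = 0.0054).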

How the data were processed

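PolyA RNA of mouse liver was measured in 9 libraries, 3 each labelled control, model and treated. Reads were aligned with HISAT2, per the submitters' processing notes; for its version, quantifier, annotation and strand setting the entry is: not given in the sources used here. Gene counts were deposited as estimated counts, whole numbers totalling 56440871 to 60665156 per library. The authors also deposited FPKM per gene, named so per the file headers. In each library every transcript's count lay within 1 of FPKM times length times a constant, so the counts are coverage estimates, rounded, and not tallied reads, so sampling error read from them is approximate. Of 27945 gene IDs with a count, 27859 are in GENCODE M21 and 25083 have its start and end, so coordinates are GRCm38.

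The test was that of edgeR 4.0.16 (R 4.3.3; robust quasi-likelihood fit, TMM scaling, filterByExpr at a minimum count of 10 and a total of 15) in 1 fit over all 9 libraries without covariates, with the contrast treated minus model and Benjamini-Hochberg adjustment over 18113 genes. No replicates were merged, since their counts differed by 82.9 to 172 times sampling noise (chi-square per degree of freedom). On simulated counts of 17422 genes for treated versus model, 47 of 100 genes changed 2-fold and 84 of 100 changed 4-fold were recovered, with 8 false calls. The changed genes were drawn from those above 1 CPM and were fewer than the genes called in the data, so recovery in the data may differ. Alternatives used limma 3.58.1, with 0.1 added to FPKM before log2, and DESeq2 1.42.0. Members and gene lists were chosen with earlier results of these data known, and lists are described by counts and medians with no set test. Named were the 8 called genes per direction with the largest fold (10 CPM or more in the higher group, symbols of clones left out) and the 8 with the largest CPM difference, both with libraries that do not overlap, up to 3 called members of each list per direction by smallest p, and a fixed set of liver genes; the text uses those its paragraphs are about and names further called members without values. Values of some genes are not reported here.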

Additional observations from a re-analysis of the deposited data

How the results depend on the processing

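Against 943 genes higher and 805 lower, the counts were 929 and 701 with the model and treated libraries alone, 951 and 782 with relative log expression scaling, 865 and 727 without a filter, 996 and 882 at 1 CPM or more in 3 libraries, and 1054 and 825 with limma-voom. They moved by over 1.5 times with DESeq2 (1423 and 1319), with limma on log2 FPKM (1664 and 400), with library totals in place of TMM (1638 and 408, an alternative chosen after seeing the data), and with model replicate 1 as the lone model library (267 and 183). Leaving out 1 library gave 530 to 921 higher and 364 to 748 lower, lowest without model replicate 1 for both. With the replicate number as a block 700 were higher and 545 lower. The labels do not say that a number marks a shared origin. Deviations from the group means correlated at 0.0168, -0.0326 and 0.0256 between same-numbered model and treated libraries. Pairs with different numbers gave -0.0417 to 0.0252, so whether a number marks a shared origin cannot be told from these values. Without model replicate 1, 480 and 354 of the original calls were made again. Of 226 named genes 194 were called. Of these, 76 kept the call under all 19 alternatives, 128 kept it with each library left out, and 0 changed sign while called. Why calls were lost was not tested, beyond there being fewer libraries in the fits that leave some out. Precision is limited by the 3 libraries a group. On simulated counts, with changes only in genes above 1 CPM and in fewer genes than were called, 47 of 100 genes changed 2-fold were recovered.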

Other observations

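Few long noncoding RNAs rose, and the share that fell was near that of all genes tested. Of 2081 tested (GENCODE M21), 16 were called higher and 86 lower, 0.769% and 4.13%, beside 5.21% and 4.44% of all genes tested. Of 14342 protein-coding genes 913 were higher and 698 lower, 6.37% and 4.87%. Some of these RNAs are antisense to other genes, and their reads cannot be told apart where the strand setting is not known. Library totals in place of TMM gave 23 higher and 49 lower long noncoding RNAs beside 1579 and 344 protein-coding genes, and limma on log2 FPKM gave 43 and 75 beside 1549 and 302. Without model replicate 1 the long noncoding counts were 3 and 40. Examples chosen after their values were seen are BC024386, a processed transcript, at 651, 528 and 593 CPM in model replicates 1 to 3 and 235, 301 and 247 CPM in treated replicates 1 to 3, and B930025P03Rik, at 9.71, 11.99 and 12.04 CPM against 2.89, 2.81 and 3.45 CPM. Of 1521 pseudogenes, 14 were higher and 19 lower.

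The balance of calls differed by level. Of 116 genes at 1000 CPM or more, 0 were called higher and 20 lower (17.2%). Between 100 and 1000 CPM, 73 of 1147 were higher and 182 lower, between 10 and 100 CPM 484 of 6808 and 426, and between 1 and 10 CPM 351 of 5291 and 146. Under 1 CPM they were about even, at 35 and 31 of 4751.

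Among genes called higher, 13 had no count in any model library, so their fold over the model livers has no fixed size. Pla2g2d, a secreted phospholipase, had 96 counts over the treated libraries, and Tm4sf19, a membrane protein, had 119. Both had no count in the control libraries either, so they passed the filter on low counts through the treated libraries alone. Both were chosen after their values were seen.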
